A study of Mus musculus with 2 samples.

Results

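The 10 macrophage and myeloid cell genes described here were *Cd68*, *Adgre1*, *Csf1r*, *Csf1*, *Cd14*, *Lyz2*, *Mrc1*, *Tyrobp*, *Fcer1g* and *Cd163*. They were found by symbol, and all 10 had a row among the 19829 genes of the normalized count table. Macrophages, monocytes and neutrophils are among the myeloid cells of the blood and tissues. Kidney macrophages live between the tubules, depend on signals through the receptor CSF1R, and are joined by monocytes from the blood when the kidney is injured. They engulf dead cells and debris, digest them in lysosomes, and sense damage through surface receptors that rely on small signaling adaptors.

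RNA was taken from whole left kidneys of mice at 14 weeks of age, with 1 library for the wild-type group (WT+AKI) and 1 for the transgenic group (TG+AKI). The animals were male C57BL/6 mice, and the transgenic animals overexpressed *Inmt*, an indole methylating enzyme, in proximal tubules. Per the study's methods both groups had received high-dose voclosporin, a calcineurin inhibitor, at 30 mg/kg daily and then bilateral renal ischemia of 30 min with reperfusion, with harvest at 48 h. A figure legend of the study gives 24 h after ischemia instead. The length of voclosporin treatment is given both as 2 weeks, from 8 to 10 weeks of age, and as 6 weeks, and the treatment field of the labels says that there was no treatment. The title of the transgenic sample also calls it a conditional knockout, and *Inmt* itself was at 10.4 in WT+AKI, against 402.8 in TG+AKI. Whether a library came from a single mouse was not stated. The comparison asked how kidney transcripts differ between the genotypes after this injury.

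The libraries held 38542764 reads in WT+AKI, against 36427421 in TG+AKI. A normalized read count of 1 stood for 42.4 and 33.1 reads in them. There was a single library per group, hence no replicate check of any difference, and brackets give 95% intervals that cover counting error only. A gene was called lower or higher when its normalized count differed at least 2-fold and reached 1 in at least 1 library. Every gene with a row had reads in both libraries. A gene with reads in only 1 library may therefore have no row, and the list counts and medians leave such genes out. The kidney label was matched by the proximal tubule genes, all 10 of which were listed in both libraries, with *Slc34a1*, the sodium phosphate transporter, at 764.5 and 5396.7.

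Of the 10 myeloid genes, 7 were called lower in TG+AKI, 0 were called higher, and 2 differed by less than 2-fold. *Cd163* stayed below a count of 1 in both libraries and was not called. Among all 14997 genes compared, 11.0% were called lower and 7.35% higher. Higher genes made up 40.1% of all calls, and 23.4% with equal library totals, under which the same 7 myeloid genes were called lower. The median log2 ratio of TG+AKI to WT+AKI was -1.62 over the 10 genes and -0.017 over all genes compared. The 7 lower genes were *Cd68*, *Csf1*, *Cd14*, *Fcer1g*, *Lyz2*, *Adgre1* and *Tyrobp*, whereas *Csf1r* and *Mrc1* had somewhat higher counts in TG+AKI. In whole-kidney RNA, fewer cells of a type and less RNA per cell cannot be told apart. The values count reads over all exons of each gene. *Csf1* lies on chromosome 3 from 107741048 to 107760469, *Lyz2* on chromosome 10 from 117277541 to 117282272, and *Adgre1* on chromosome 17 from 57358581 to 57483529 (GRCm38). *Tyrobp* lies on chromosome 7 from 30413782 to 30417582, *Fcer1g* on chromosome 1 from 171229572 to 171234349, and *Cd14* on chromosome 18 from 36725064 to 36726815. *Mrc1* lies on chromosome 2 from 14229414 to 14332023 and *Cd163* on chromosome 6 from 124304636 to 124330529.

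**Figure D1:**
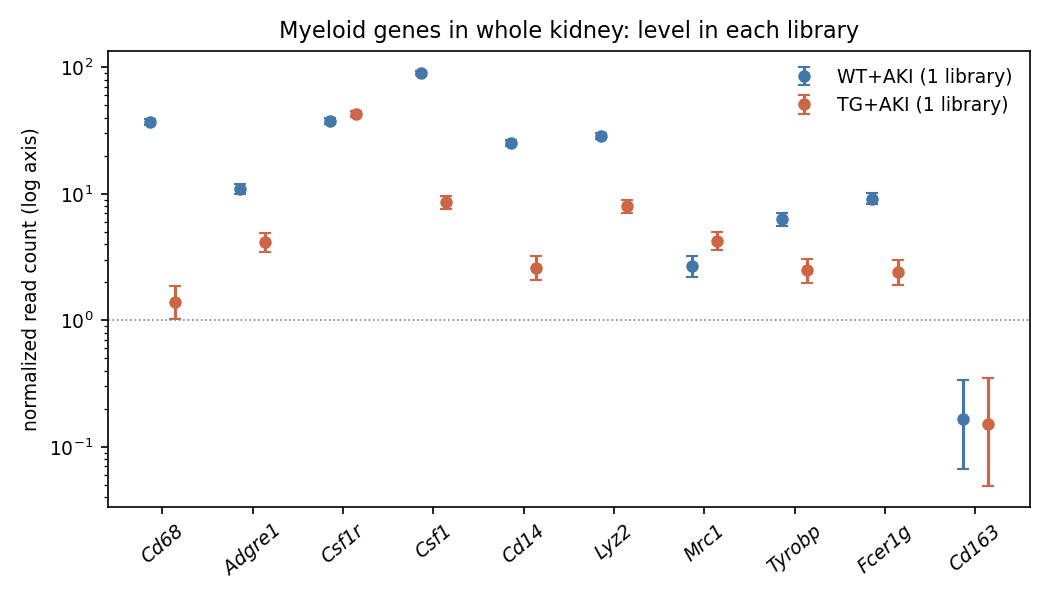
Normalized read count (log axis) of each of the 10 genes in the WT+AKI library (blue) and the TG+AKI library (orange), with bars for the exact Poisson 95% interval of the reads and a dotted line at a count of 1. The points separate downward for 7 genes, from *Csf1* at 89.7 and 8.61 to *Tyrobp* at 6.30 and 2.48, and lie close together for *Csf1r* at 37.5 and 43.0.

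*Cd68* encodes a heavily glycosylated protein of the late endosomes and lysosomes of macrophages. It lies on chromosome 11 from 69664213 to 69666170 (minus strand, GRCm38, the assembly also called mm10). Its normalized count was 37.1 [35.3 to 39.0] in WT+AKI, against 1.39 [1.02 to 1.85] in TG+AKI, from 1572 and 46 reads. The level was 26.7-fold lower in the transgenic kidney [19.9 to 36.6], the widest gap of the 10 genes. Only 46 of the 14997 genes compared had a lower ratio. No exon of another annotated gene overlaps *Cd68*, and none of its 100-base words occurs in another gene, so its reads had no annotated competitor.

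*Lyz2*, the lysozyme of macrophages and neutrophils that cleaves bacterial cell walls, was at 28.7 [27.1 to 30.3] in WT+AKI, against 7.97 [7.04 to 8.99] in TG+AKI. The level was 3.59-fold lower [3.14 to 4.12]. Its close relative *Lyz1*, the Paneth cell lysozyme, had only 11 and 4 reads, and 1.97% of the 100-base words of *Lyz2* recur in another gene. *Adgre1* encodes F4/80, the adhesion receptor by which mouse macrophages are usually identified. Its count was 10.9 [9.90 to 11.9] in WT+AKI, against 4.14 [3.47 to 4.89] in TG+AKI, or 2.63-fold lower [2.17 to 3.20]. *Cd68* was thus separated from both of these macrophage genes by a margin well beyond counting error.

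*Csf1* encodes colony-stimulating factor 1, the growth factor that macrophages need to survive, and tubular cells are among its sources in the kidney. It was the most abundant of the 10 genes by count in WT+AKI, at 89.7 [86.9 to 92.6], and was at 8.61 [7.64 to 9.67] in TG+AKI. The level was 10.4-fold lower [9.24 to 11.8]. *Il34*, the other ligand of the same receptor, was at 58.6 and 5.65, also 10.4-fold lower [8.94 to 12.1]. Both ligands of the receptor were therefore lower by an amount that counting error could not separate.

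*Csf1r*, the receptor of both ligands and a defining gene of the macrophage lineage, did not share this difference. Its count was 37.5 [35.7 to 39.4] in WT+AKI, against 43.0 [40.8 to 45.3] in TG+AKI, a ratio of 1.15 [1.07 to 1.23]. The direction rests on the scaling, since the log2 ratio of 0.20 became -0.076 with equal library totals. *Csf1r* lies on chromosome 18 from 61105572 to 61131139 on the plus strand. The gene *Hmgxb3* on the opposite strand overlaps 873 of its 5774 exonic bases (15.1%), and *Hmgxb3* was at 31.7 and 29.2. The library kit keeps strand, but whether the counting used it was not stated, so some reads of these genes may not be told apart. Per kilobase of its longest annotated transcript, *Csf1r* stood at 0.371 times the level of *Csf1* in WT+AKI and at 4.44 times in TG+AKI.

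Of 10 listed genes beside *Csf1* and *Csf1r*, 8 had a row and 7 reached a count of 1. Of these 7, 4 were called lower and 0 higher, with a median log2 ratio of -1.01. *Csf3r*, the receptor of the granulocyte growth factor, was 5.17-fold lower [3.25 to 8.62], from 139 and 21 reads. *Csf2ra*, a receptor subunit for GM-CSF, was at 10.9 and 4.98, or 2.19-fold lower [1.83 to 2.63]. The signaling genes *Cbl* (59.2 and 54.5) and *Grb2* (57.8 and 43.3), which most cell types use, differed by less than 2-fold.

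**Figure D2:**
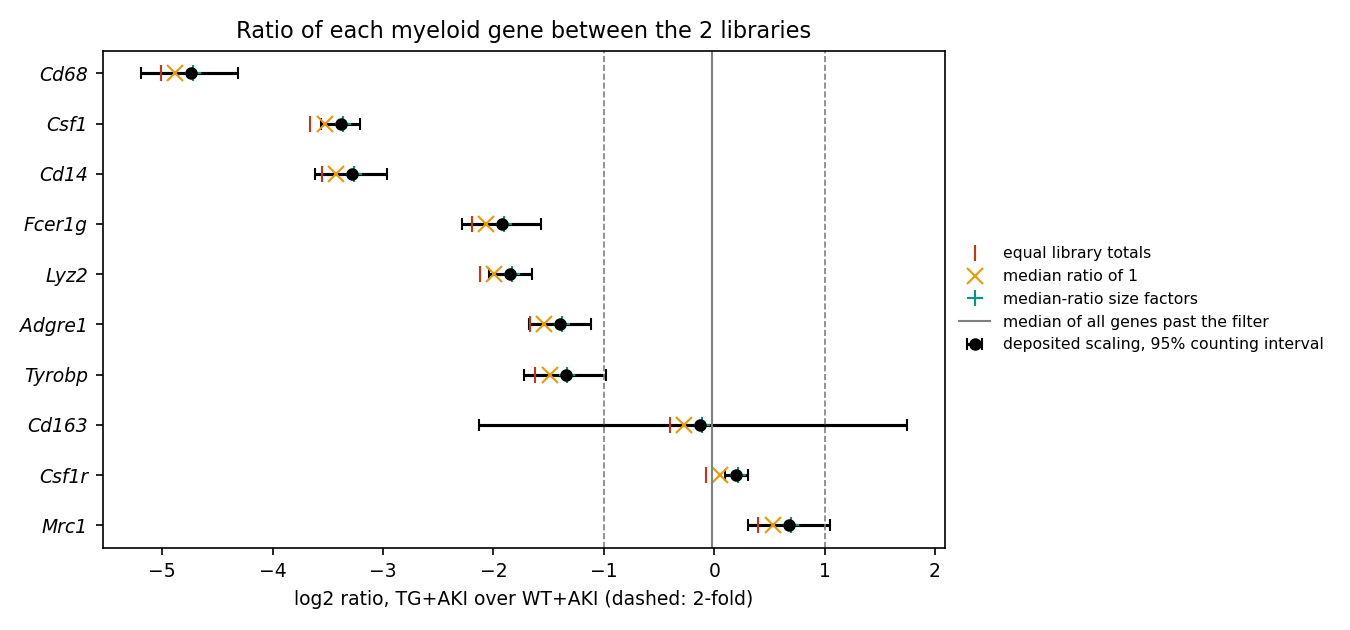
Log2 ratio of TG+AKI to WT+AKI for each of the 10 genes (black points, bars for the exact 95% counting interval) with the value under 3 other library scalings (coloured marks), dashed lines at 2-fold and a solid line at the median of all genes compared. The genes spread from -4.74 for *Cd68* to 0.68 for *Mrc1*, and *Csf1r* is the only one whose sign depends on the scaling.

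*Tyrobp* and *Fcer1g* encode DAP12 and the Fc receptor gamma chain, small membrane adaptors that pair with receptors lacking a signaling tail of their own. Their cytoplasmic ITAM motif recruits the kinase SYK. *Tyrobp* was at 6.30 [5.56 to 7.10] in WT+AKI, against 2.48 [1.97 to 3.07] in TG+AKI, or 2.54-fold lower [1.98 to 3.30]. *Fcer1g* was at 9.15 [8.26 to 10.1] and 2.42 [1.92 to 3.01], or 3.79-fold lower [2.97 to 4.88]. Both adaptors were low genes, with 267 and 82 reads for *Tyrobp* and 388 and 80 for *Fcer1g*, and the interval of *Tyrobp* begins just under 2-fold.

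The receptors and kinases that work with these adaptors were then examined. Of 25 further ITAM and Fc receptor signaling genes, 18 had a row and 14 reached a count of 1, of which 8 were called lower, 0 higher and 6 neither. Their median log2 ratio was -1.45. The low genes set this median, since over the whole list with both adaptors it was -1.47 and became -0.19 with a filter of 10, which leaves *Fcgr2b*, *Lyn*, *Plcg2*, *Inpp5d* and *Ptpn6*, each under 2-fold. The kinase gene *Fgr* was at 2.62 and 0.513, from 111 and 17 reads, or 5.10-fold lower [3.05 to 9.07]. *Syk* was at 5.02 and 1.42, or 3.54-fold lower [2.57 to 4.96]. Among the receptors, the activating Fc receptor gene *Fcgr3* was at 8.49 and 3.44, or 2.47-fold lower [1.99 to 3.07]. *Fcgr2b*, which encodes the inhibitory Fc receptor and does not need the gamma chain, was at 20.7 and 38.0, with a ratio of 1.84 (lower bound 1.68) in the other direction. *Trem2*, a receptor that pairs with DAP12, had no row and was not analysed here, and whether it had reads in a single library cannot be told.

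*Cd14* encodes the co-receptor that hands bacterial lipopolysaccharide to the TLR4 and MD-2 complex, and it is made by monocytes, macrophages and some epithelial cells. Its count was 25.2 [23.7 to 26.7] in WT+AKI, against 2.60 [2.08 to 3.21] in TG+AKI, from 1068 and 86 reads. The level was 9.70-fold lower [7.78 to 12.2]. *Tlr4* was at 14.7 and 6.31, or 2.33-fold lower [1.99 to 2.74], and *Ly96*, which encodes MD-2, was at 4.13 and 2.93, with a ratio of 0.710 [0.548 to 0.915]. The co-receptor was thus further apart between the libraries than the receptor it serves. All 18 further genes of CD14 and TLR4 signaling had a row, and 15 reached a count of 1. Of these, 8 were called lower and 0 higher, with a median log2 ratio of -1.16. *Tlr2*, which recognizes bacterial lipoproteins, was 4.34-fold lower [3.42 to 5.58].

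*Mrc1* encodes the mannose receptor CD206, an endocytic receptor of tissue-resident and alternatively activated macrophages and of some endothelial cells. It was at 2.67 [2.20 to 3.20] in WT+AKI, against 4.26 [3.58 to 5.02] in TG+AKI, from 113 and 141 reads. The ratio was 1.60 [1.24 to 2.06], and it was above 1 under every scaling tried. *Cd163*, the receptor for hemoglobin and haptoglobin complexes, had 7 reads in WT+AKI, against 5 in TG+AKI, at counts of 0.165 [0.0664 to 0.340] and 0.151 [0.0490 to 0.352]. Its ratio of 0.914 [0.229 to 3.35] leaves a difference within that interval, in either direction, undetectable at this depth. *Mrc1* was therefore not called lower, and *Cd163*, below a count of 1 in both libraries, could not be called in either direction.

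Other scavenger receptors were divided. Of 15 further scavenger and mannose receptor genes, 12 had a row and 10 reached a count of 1, of which 4 were called lower and 1 higher. *Msr1*, the macrophage scavenger receptor for modified lipoproteins, was at 2.10 and 0.242, from 89 and 8 reads, or 8.69-fold lower [4.22 to 20.7]. *Stab2*, a hyaluronan receptor of sinusoidal endothelium, was the gene called higher, at 1.30 and 11.7, with a ratio of 9.03 [6.80 to 12.2].

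Sequences upstream of the genes are shown for *Cd68*, the gene with the widest gap, for *Csf1*, the ligand, and for *Mrc1*, the gene with the highest ratio. RefSeq promoter windows (GRCm38.p6) were at hand for 6 of the 10 genes, and the 250 bases before the start are printed 5′ to 3′ on the strand of the gene. *Cd68* is on the minus strand (chr11:69666171-69666420), *Csf1* on the minus strand (chr3:107760470-107760719) and *Mrc1* on the plus strand (chr2:14229164-14229413). Capitals mark matches, on either strand, to words contained in the sites of PU.1 (GAGGAA), AP-1 (TGANTCA) and NF-κB.
Cd68: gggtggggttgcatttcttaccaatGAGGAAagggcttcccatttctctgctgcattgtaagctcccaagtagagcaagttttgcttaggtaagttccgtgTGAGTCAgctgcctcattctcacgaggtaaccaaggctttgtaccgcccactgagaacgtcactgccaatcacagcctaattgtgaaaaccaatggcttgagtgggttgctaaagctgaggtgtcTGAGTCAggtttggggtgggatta
Csf1: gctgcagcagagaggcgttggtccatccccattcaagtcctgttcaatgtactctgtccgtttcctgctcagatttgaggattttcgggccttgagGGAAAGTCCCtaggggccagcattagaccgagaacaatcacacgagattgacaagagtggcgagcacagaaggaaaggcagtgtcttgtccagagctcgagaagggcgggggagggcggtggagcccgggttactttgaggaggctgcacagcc
Mrc1: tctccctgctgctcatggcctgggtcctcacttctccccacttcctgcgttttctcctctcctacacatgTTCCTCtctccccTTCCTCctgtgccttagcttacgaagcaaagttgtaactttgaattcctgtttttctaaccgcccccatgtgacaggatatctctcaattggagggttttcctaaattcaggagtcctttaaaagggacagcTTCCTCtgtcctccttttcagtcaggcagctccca

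In *Cd68* the PU.1 word begins 225 bases before the start, and an AP-1 word begins 149 and again 24 bases before it. *Csf1* holds an NF-κB word that begins 154 bases before its start, on the opposite strand. *Mrc1* holds the PU.1 word 3 times, beginning 180, 167 and 35 bases before its start, all on the opposite strand. The PU.1 word occurs in 23.3% of all 32851 windows, the AP-1 word in 6.75% and the NF-κB word in 1.21%. The windows of *Lyz2*, *Fcer1g* and *Cd163* hold none of these letters. A match describes the letters and does not show binding.

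Per kilobase of transcript the order of the genes was not the same in the 2 libraries. In WT+AKI *Cd68* came first at 30.1 counts per kilobase, followed by *Lyz2* (21.8) and *Csf1* (21.5), whose intervals overlapped. *Cd14* (15.4) and *Fcer1g* (13.4) came next, with overlapping intervals, then *Tyrobp* (10.5), *Csf1r* (7.97) and *Adgre1* (3.36). In TG+AKI *Csf1r* came first at 9.15 and *Lyz2* second at 6.06. There *Tyrobp* (4.15) and *Fcer1g* (3.54) overlapped, and so did each neighbouring pair from *Csf1* (2.06) through *Cd14* (1.58), *Adgre1* (1.28) and *Cd68* (1.13) to *Mrc1* (0.792). *Cd163* was last in both, at 0.0372 and 0.0340. *Cd68* had moved from first to place 8.

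To compare the genes without library scaling, each ratio was divided by that of *Ptprc*, which encodes CD45 and marks leukocytes of every kind. *Ptprc* was at 13.7 in WT+AKI, against 7.28 in TG+AKI, a ratio of 0.530 [0.454 to 0.617], so it was itself lower, by less than 2-fold. Its log2 ratio of -0.92 lay above the median of -1.28 over the 13 pan-leukocyte genes that reached a count of 1. Relative to *Ptprc*, 7 of the genes were lower with intervals below 1, and *Csf1r* and *Mrc1* were higher with intervals above 1. *Cd68* stood at 0.0707 [0.0497 to 0.0989] and *Csf1* at 0.181 [0.149 to 0.220]. *Cd14* stood at 0.194 [0.147 to 0.255]. *Tyrobp* stood nearest to *Ptprc*, at 0.742 with an interval of 0.548 to 0.999, and *Adgre1* at 0.718 [0.558 to 0.921]. *Csf1r* stood at 2.17 [1.83 to 2.57] and *Mrc1* at 3.01 [2.23 to 4.07]. Relative to *Tyrobp*, *Adgre1* stood at 0.968 [0.701 to 1.34], so these macrophage genes could not be separated at this depth. With *Tyrobp* as the reference, 5 genes were lower with intervals below 1, and *Csf1r* and *Mrc1* were again higher. The count of lower genes thus depends on the reference gene.

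**Figure D3:**
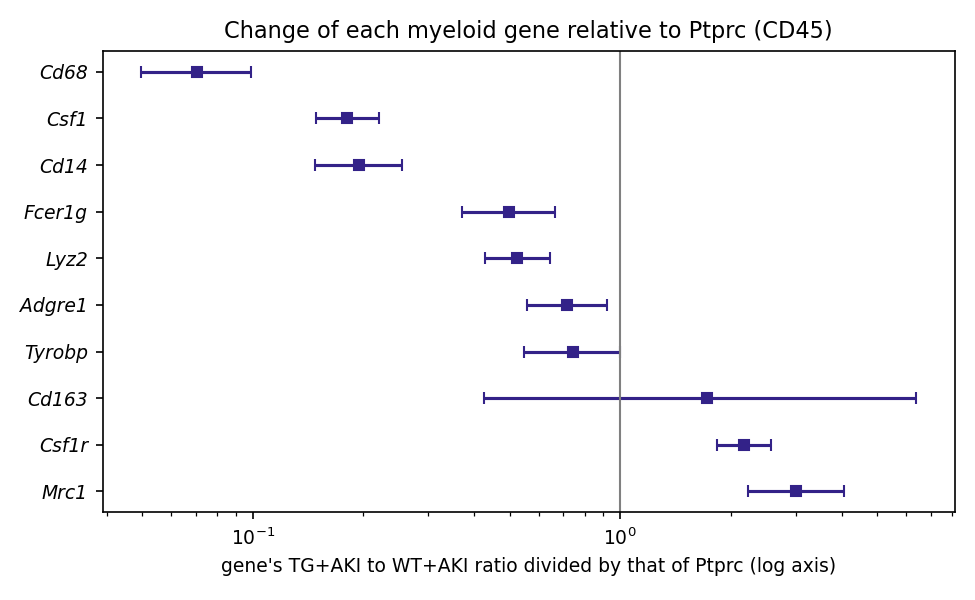
Ratio of TG+AKI to WT+AKI of each of the 10 genes divided by that of *Ptprc* (log axis), with bars for the conditional exact 95% interval from the reads of both genes and a line at 1. *Cd68* lies farthest to the left at 0.0707, *Cd163* has an interval on both sides of the line, *Tyrobp* and *Adgre1* lie just left of the line, and *Csf1r* and *Mrc1* lie to its right.

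Wider marker lists place these genes among other myeloid transcripts. Of 16 further genes of infiltrating monocytes and macrophages, 14 had a row and 13 reached a count of 1, of which 10 were called lower and 0 higher, with a median log2 ratio of -2.17. *Itgam* (CD11b), the integrin chain of monocytes and neutrophils, was at 19.9 and 1.06, but 71.0% of its 100-base words occur in another annotated gene, which leaves its level uncertain. *Chil3*, a chitinase-like protein of activated macrophages, was at 3.56 and 0.393, or 9.07-fold lower [5.15 to 17.4]. *Spp1* (osteopontin), which injured tubules also produce, was at 10183 and 670.5. *Ccr2*, the receptor that guides monocytes out of the marrow, was at 5.17 and 4.08, with a ratio of 0.789 [0.632 to 0.982]. It was among the 3 genes under 2-fold, with *Ly6c2* and *S100a4*. *Ly6c2* was at 5.47 and 2.93, with a ratio of 0.535 [0.418 to 0.681]. *S100a4* had a ratio of 0.602 [0.447 to 0.803], but 50.9% of its 100-base words occur in another annotated gene.

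Of 14 further genes of resident kidney macrophages, 12 had a row and 11 reached a count of 1, with 6 called lower and 1 higher, and a median log2 ratio of -1.02. The complement gene *C1qc* was at 18.4 and 6.40, or 2.87-fold lower [2.46 to 3.35]. *Hpgds*, a prostaglandin D synthase, was 5.54-fold lower [4.19 to 7.44], and *Ms4a7* 4.97-fold lower [2.61 to 10.4]. *Folr2*, a folate receptor of resident macrophages, was the gene called higher, at 0.637 and 1.78, from 27 and 59 reads. The 4 genes under 2-fold were mostly more abundant, and whole-kidney values do not show which cells their reads came from. *Cd74* was at 34.6 and 56.3, with a ratio of 1.63 [1.52 to 1.74], and *Apoe* at 153.5 and 156.8, with a ratio of 1.02 [0.985 to 1.06]. *Cd81* had a ratio of 0.861 [0.840 to 0.882], and *Cx3cr1* (6.06 and 3.32) a ratio of 0.548 [0.434 to 0.688]. In all, 3 of the 11 genes had a ratio above 1.

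All 14 pan-leukocyte genes had a row, and 13 reached a count of 1, of which 8 were called lower and 0 higher, with a median log2 ratio of -1.28. *Cd52* (9.25 and 2.54) and *Rac2* (6.39 and 1.93) were 3.65-fold [2.87 to 4.67] and 3.31-fold lower [2.51 to 4.41], close to *Fcer1g* and *Lyz2*. *Lsp1*, a leukocyte actin-binding protein, was at 4.22 and 4.11, with a ratio of 0.973 [0.773 to 1.22]. Genes enter these counts if they reached a count of 1 in either library, and a gene that did so in WT+AKI only is lower by construction, as one that did so in TG+AKI only, such as *Folr2*, is higher by construction.

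Lysosomal and phagocyte genes beside *Cd68* and *Lyz2* were split. Of 20 further genes 19 reached a count of 1, of which 8 were called lower, 0 higher and 11 neither, with a median log2 ratio of -0.69. *Gpnmb*, a glycoprotein of lipid-laden macrophages, was at 6.23 and 0.272, from 264 and 9 reads, or 22.9-fold lower [11.9 to 50.7], which overlaps the interval of *Cd68*. *Lgals3* (galectin-3) was at 208.8 and 27.1, or 7.70-fold lower [7.19 to 8.26]. The lysosomal membrane genes *Lamp1* (1081.7 and 1260.3) and *Lamp2* (771.2 and 1087), which all cells use, differed by less than 2-fold, unlike *Cd68*.

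Of 14 transcription factor genes of the myeloid lineage, 12 reached a count of 1, and 3 of these were called lower and 1 higher, with a median log2 ratio of -0.45. *Spi1*, which encodes PU.1, the master regulator of myeloid cells, was at 3.82 and 1.39, or 2.75-fold lower [1.97 to 3.90]. *Runx1*, a regulator of blood cell development, was at 8.77 and 1.06, or 8.30-fold lower [5.86 to 12.1]. *Maf*, a factor that mature macrophages share with other kidney cells, was called higher, at 103.5 and 279.6, a log2 ratio of 1.43.

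Genes of other kidney cells differed alongside the myeloid genes. All 11 injured tubule genes were called lower, with a median log2 ratio of -3.92 and summed counts of 13637 in WT+AKI, against 950.7 in TG+AKI. All 10 proximal tubule genes were called higher, with summed counts of 7233 and 31624. Of the 11 endothelial genes none was called in either direction, and their median log2 ratio was -0.11. What part these differences in tubular transcripts have in the values of *Cd68*, *Csf1* and *Cd14* was not tested.

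**Figure D4:**
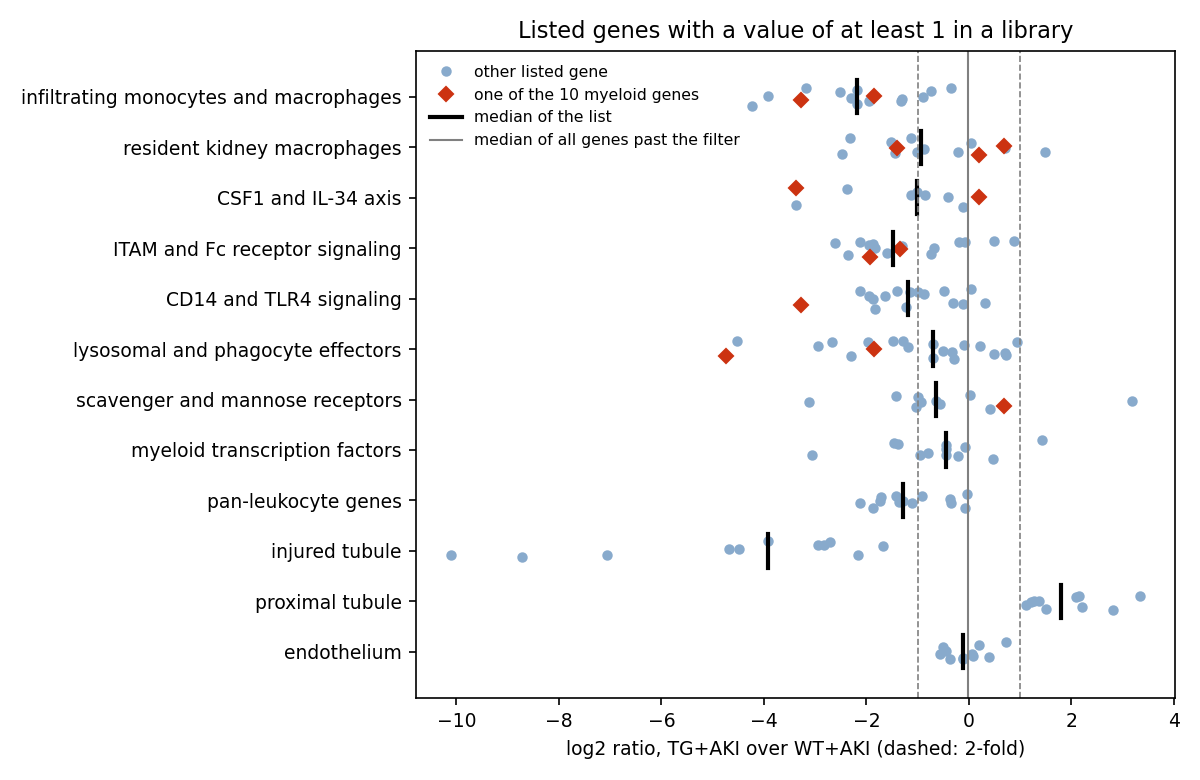
Log2 ratio of TG+AKI to WT+AKI for listed genes with a count of at least 1 in a library, by gene list (rows), with the 10 myeloid genes as red diamonds, other listed genes as blue points, a black bar at each list's median (all its genes plotted), dashed lines at 2-fold and a grey line at the median of all genes compared. Infiltrating monocyte genes have a median of -2.17, injured tubule genes lie left of -1 throughout and proximal tubule genes right of 1, and the red diamonds of *Csf1r* and *Mrc1* lie to the right of zero. *Spp1* is plotted in both the infiltrating monocyte and the injured tubule lists.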

How the data were processed

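Whole-kidney mRNA of 2 libraries (TruSeq stranded) was analysed, 1 per group, with groups taken from the library names in the labels. Per the study's methods and the submitters' processing notes, the authors aligned reads to mm10 with STAR 2.7.3a, counted them per gene with HTSeq and normalized them with DESeq2. The notes also name edgeR. The gene annotation was not given in the sources used here. The deposited values are a normalized read count signal per gene, made by the authors by dividing counts by a library factor. Divided by the lowest value of its column, each value gave whole reads (100% of values, within 1e-06 reads). The ratio of library factors, 0.826, matched a trimmed mean of M-values (TMM) computed on these reads. The reads that 1 count stands for are given in the report.

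The ratio of normalized counts, TG+AKI over WT+AKI, was the main measure, for genes with a count of at least 1 in at least 1 library, and a difference of at least 2-fold was called. Levels carry exact Poisson intervals and ratios Clopper-Pearson intervals at 95%. Ratios between genes carry conditional exact intervals. No test across conditions was possible with 1 library per group. A two-sided exact binomial test on the reads with Benjamini-Hochberg adjustment, which compares the libraries and not the conditions, passed 11011 of 14997 genes (73.4%). On simulated Poisson reads of 14718 genes with 200 changed 4-fold, 100% of the changed genes were recovered, 6 unchanged genes were called, and 95.3% of ratio intervals covered the true ratio. The simulated reads held counting error only, with no variation between animals or libraries, so they check the arithmetic of the intervals and nothing more.

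The 10 genes and the 17 gene lists were chosen with earlier results of these data known. The named genes were the 10 genes, up to 3 genes of each list with the largest absolute log2 ratio, and receptor, ligand or adaptor partners (*Tlr4*, *Ly96*, *Fcgr3* and *Trem2*). *Ptprc* was the reference gene. Other genes named (*Chil3*, *Folr2*, *Ccr2*, *Ly6c2*, *S100a4*, *Cd74*, *Apoe*, *Cd81*, *Cx3cr1*, *Lsp1*, *Csf2ra*, *Cbl*, *Grb2*, *Syk*, *Fcgr2b*, *Lyn*, *Plcg2*, *Inpp5d*, *Ptpn6*, *Lamp1*, *Lamp2*, *Lyz1*, *Hmgxb3*, and in the closing section *S100a8*, *Mmp9*, *Ltf*, *Cd209a*, *Xcr1*, *Clec9a*, *Zbtb46*, *Fscn1*, *Batf3* and the genes without a row) were chosen after their values were seen. A gene that this rule names is not reported here. Lengths and overlaps came from GENCODE M21 (GRCm38), promoter windows and positions from RefSeq (GRCm38.p6), where 99.8% of the gene IDs were found. Alternatives were 3 other scalings, pseudocounts of 0.1 and 1, a filter of 10, no filter, a 1.5-fold rule, intervals wholly beyond 2-fold, and the exact binomial test. Python 3.11.15 with numpy 2.4.6, scipy 1.17.1 and pandas 2.3.3 was used.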

Additional observations from a re-analysis of the deposited data

How the results depend on the processing

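The 7 genes called lower remained 7 under all 3 other scalings, both pseudocounts, no filter, the 1.5-fold rule and the exact binomial test. They were 6 when the whole interval had to lie beyond 2-fold, without *Tyrobp*, and 5 with a filter of 10. The count of the 10 genes called higher went from 0 to 1 with the 1.5-fold rule and to 2 with the exact binomial test. Their median log2 ratio of -1.62 became -1.90 with equal library totals and -2.56 with a filter of 10, which leaves fewer genes. Over all genes, 1645 were called lower and 1103 higher (40.1% of calls higher). The counts were 790 and 629 with a filter of 10, 2489 and 1821 with no filter, 2927 and 2349 at 1.5-fold, and 5678 and 5333 with the exact binomial test. With equal library totals 726 were higher and 2372 lower (23.4% higher).

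Equal library totals moved the median log2 ratio of all genes by -0.27 and a median ratio of 1 moved it by -0.14. Of the lists' medians, with the 10 genes included, a filter of 10 moved that of ITAM and Fc receptor signaling from -1.47 to -0.19, lysosomal genes from -0.70 to -0.42, resident macrophages from -0.94 to -0.62 and transcription factors from -0.45 to -0.21. Equal library totals moved that of dendritic cells from -0.30 to -0.58, mast cells from 0.33 to 0.056 and endothelium from -0.11 to -0.38. Of the 52 genes that are among the 10 or lead a list, 50 kept their sign under the 5 alternatives run for single genes. *Csf1r* changed sign with equal library totals, as did *Gata2*, which also changed with a median ratio of 1. The log2 ratio of *Cd68* ranged from -5.01 to -3.99 and that of *Mrc1* from 0.40 to 0.69. No paired analysis was possible because each group has 1 library, and no library could be left out for the same reason. Depth limits *Cd163* most, with 7 and 5 reads.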

Other observations

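Markers of other leukocytes were few and low, and they did not move in 1 direction. Of 15 neutrophil genes, 6 had a row and 3 reached a count of 1, of which 2 were called lower and 0 higher. *S100a9*, a calcium-binding protein stored by neutrophils, was at 3.14 and 0.393, from 133 and 13 reads, or 7.99-fold lower in TG+AKI [4.52 to 15.4]. *G0s2*, the gene not called, had a ratio of 0.805 [0.745 to 0.869]. The genes that stayed below a count of 1 were divided. *S100a8* (41 and 13 reads) and *Mmp9* (37 and 5 reads) were lower, whereas *Ltf* (8 and 24 reads) had a ratio of 3.84 [1.67 to 9.89]. *Ly6g*, *Mpo* and *Elane*, which define neutrophils, had no row and were not analysed here, and whether they had reads in a single library cannot be told. Among 14 T and NK cell genes with a row only *Lck* reached a count of 1, at 1.20 and 1.06, with a ratio of 0.879 [0.555 to 1.38]. The summed counts of these 14 genes were 4.81 in WT+AKI, against 6.61 in TG+AKI.

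The dendritic cell genes were divided. All 12 listed genes had a row and 6 reached a count of 1, with 2 called lower and 2 higher, and a median log2 ratio of -0.30. The genes called higher, *Flt3* and *Cd209a*, reached a count of 1 in TG+AKI only and so are higher by construction. *Flt3*, the receptor for the growth factor of these cells, was at 0.330 and 1.24, from 14 and 41 reads, a log2 ratio of 1.91. *Cd209a*, a lectin of a dendritic cell subset, was at 0.542 and 1.24, with a ratio of 2.28 [1.34 to 3.98]. *Xcr1* and *Clec9a*, which mark the cross-presenting subset, had 5 and 12 reads and 8 and 18 reads, with ratios of 3.07 [1.01 to 11.1] and 2.88 [1.19 to 7.66]. *Zbtb46*, a transcription factor of conventional dendritic cells, was at 15.8 and 14.2, from 669 and 469 reads, with a ratio of 0.897 [0.796 to 1.01]. *Fscn1*, an actin-bundling protein of mature dendritic cells, had a ratio of 0.735 [0.599 to 0.899], and *Batf3*, a factor of the cross-presenting subset, had 14 and 9 reads. *Itgax* (CD11c), which macrophages also express, was at 5.14 and 1.78, or 2.89-fold lower [2.16 to 3.92], and *Irf4* was 8.98-fold lower [4.98 to 17.8]. These genes were chosen after their values were seen, beyond those the list rule names.

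The mast cell genes *Cpa3*, *Mcpt4* and *Fcer1a*, whose product pairs with the gamma chain encoded by *Fcer1g*, had no row. Of the 4 mast cell and basophil genes with a row 3 reached a count of 1, with *Ms4a2*, another chain of the IgE receptor, called higher at 0.590 and 1.27, from 25 and 42 reads. Of 10 B and plasma cell genes, 9 had a row and 2 reached a count of 1, with *Cr2*, a complement receptor of B cells, at 0.354 and 1.24 (like *Ms4a2*, above 1 in TG+AKI only), and *Mzb1*, a chaperone of plasma cells, at 3.96 and 1.45. For *Mzb1*, 74.2% of its 100-base words occur in another annotated gene, which leaves its level uncertain.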
